A study of Arabidopsis thaliana with 9 samples.

Results

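The 100 genes described here are abundant nuclear genes of Arabidopsis siliques that carry a ribosomal protein description. They were chosen from 33602 genes of the deposited table as the nuclear genes whose description opens with "ribosomal protein", apart from kinases and methyltransferases, and whose mean over all 9 libraries was at least 50 TPM (a length-corrected share of each library's transcripts, scaled to a total of 1000000). Of 283 nuclear genes with such a description, 183 lay below that level. Ribosomal protein genes whose description opens with other words were not considered, whatever their level. The mean level therefore chose the members, and it is given only as a description. Just inside it were RPL13AA at 50.3, RPL18AC at 51.4 and RPS12A at 52.8 TPM, and just outside it RPS28C at 48.9, RPL39C at 49.5 and RPL9B_1 at 49.9 TPM. Gene symbols and their numbered endings are those of the deposited table, except that a P was put before the symbols of plastid proteins, several of which are spelled like a cytosolic one.

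The study measured RNA from whole siliques at 12 days past anthesis in 3 groups of 3 biological replicates. The labels name mRNA and total RNA kits, and which library used which is not stated. Wild type plants were Columbia. The scl15 plants lack a functional SCL15 gene, which encodes a transcriptional regulator of the GRAS family. The Napin:SCL15 plants overexpress SCL15 in seeds, and Napin names the promoter of a seed storage albumin, so the transgene is driven in seed and not in the whole silique. Every group was grown in 1 greenhouse regime of 16 to 22 degrees Celsius, and no allele or agent was shared by all groups beyond that. The labels do not say whether either altered line rests on more than 1 plant line.

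Ribosomes translate mRNA in the cytosol, in plastids and in mitochondria, and each compartment has its own set of ribosomal proteins. In plants nearly every cytosolic ribosomal protein is encoded by a small family of nuclear genes, whose transcripts are usually regulated together with growth. Plastid ribosomes are of the bacterial type, and they make core subunits of the photosynthetic complexes and the large subunit of Rubisco; many of their proteins are also encoded in the nucleus and imported. In Arabidopsis seeds the embryo is green during filling and loses its chlorophyll as it matures.

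By description and symbol, 86 members encode cytosolic ribosomal proteins, 49 of the large and 37 of the small subunit, and 11 encode plastid ribosomal proteins, 7 of the large and 4 of the small subunit. The other 3 carry the description without being ribosomal proteins by their RefSeq notes: LOS1 is translation elongation factor eEF2, and AT1G53560 and AT3G14595 are L18ae family proteins of no stated ribosomal role. RefSeq annotation of assembly TAIR10.1 names 97 of the 100 a structural constituent of the ribosome. The 86 cytosolic members stand for 53 different proteins, and 59 of them have at least 1 other member for the same protein. Members lay on all nuclear chromosomes, 26 on chromosome 1, 14 on 2, 28 on 3, 11 on 4 and 21 on 5.

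The sequences before the gene start are shown because motifs there were much more frequent in cytosolic members than in other genes. Windows of 250 bases are printed 5′ to 3′ from TAIR10.1 (RefSeq), each ending at the base before the annotated gene start, for an abundant small-subunit gene, for a pair of paralogs that behaved differently below, and for plastid genes with a large rise in scl15 and a large fall in Napin:SCL15. Capitals mark a site II element, TGGGCC or TGGGCT on either strand, which in Arabidopsis is known from ribosomal protein and cell-cycle promoters as a site bound by TCP factors, or a telo box, AAACCCTA on either strand. RPS8A lies at chr5:6853107-6853356 (minus strand), RPL6A at chr1:6378581-6378830 (minus), RPL6C at chr1:27849009-27849258 (minus), PRPL12A at chr3:10318205-10318454 (plus) and PRPS13 at chr5:4618982-4619231 (minus).
RPS8A: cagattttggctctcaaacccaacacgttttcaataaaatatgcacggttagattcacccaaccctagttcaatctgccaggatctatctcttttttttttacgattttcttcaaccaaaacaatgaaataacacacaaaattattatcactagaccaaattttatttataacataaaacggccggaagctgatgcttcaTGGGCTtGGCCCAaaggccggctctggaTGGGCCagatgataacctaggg
RPL6A: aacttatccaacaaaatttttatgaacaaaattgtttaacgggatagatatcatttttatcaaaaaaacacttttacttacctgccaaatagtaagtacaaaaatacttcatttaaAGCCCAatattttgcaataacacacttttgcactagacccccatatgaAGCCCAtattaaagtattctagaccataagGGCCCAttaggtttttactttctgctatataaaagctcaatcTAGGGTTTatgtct
RPL6C: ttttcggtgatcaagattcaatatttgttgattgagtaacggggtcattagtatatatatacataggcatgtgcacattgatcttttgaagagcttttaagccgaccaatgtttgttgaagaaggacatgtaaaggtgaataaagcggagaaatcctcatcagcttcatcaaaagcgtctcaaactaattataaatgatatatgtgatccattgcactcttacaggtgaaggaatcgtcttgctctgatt
PRPL12A: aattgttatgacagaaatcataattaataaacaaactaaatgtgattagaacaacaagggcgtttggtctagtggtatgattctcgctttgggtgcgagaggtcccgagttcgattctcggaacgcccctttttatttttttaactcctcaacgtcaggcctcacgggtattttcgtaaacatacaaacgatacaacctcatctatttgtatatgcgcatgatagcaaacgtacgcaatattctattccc
PRPS13: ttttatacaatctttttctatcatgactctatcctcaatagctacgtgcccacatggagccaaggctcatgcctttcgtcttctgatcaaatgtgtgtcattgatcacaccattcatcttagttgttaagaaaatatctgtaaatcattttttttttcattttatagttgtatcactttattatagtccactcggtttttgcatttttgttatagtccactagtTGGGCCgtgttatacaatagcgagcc
The RPS8A window holds 3 site II elements and no telo box, and that of RPL6A holds 3 site II elements and 1 telo box. Neither motif occurs in the windows of RPL6C and PRPL12A, and PRPS13 has 1 site II element. The window of RPL6C runs into the end of RPL6B, its neighbour on the same strand.

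Across the members, 68 of 86 cytosolic genes (79.1%) had at least 1 site II element in that window, and 52 (60.5%) had 2 or more matches, against 12.0% of all protein-coding genes, with overlapping matches on opposite strands counted separately. Of the 11 plastid genes, 4 (36.4%) had a site II element. The share among all 27443 nuclear protein-coding genes was 19.2%, and among the 1791 other protein-coding genes of 50 TPM or more it was 20.8%. A telo box stood in 16 cytosolic windows (18.6%) and in 2 of the 11 plastid ones (18.2%), against 4.49% of all protein-coding genes. A telo box and a site II element can share an end base, and each is then counted. A match describes the letters only. Cytosolic members without the element had slightly larger median changes than those with it in all 3 comparisons, a difference that was not tested. The median log2 fold change in scl15 against wild type was 0.26 over the 68 genes with the element and 0.29 over the 18 without it, and in Napin:SCL15 against wild type it was −0.27 and −0.34. Between the altered lines it was −0.54 and −0.61, with 57 of 68 and 18 of 18 lower by the test described below.

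**Figure D1:**
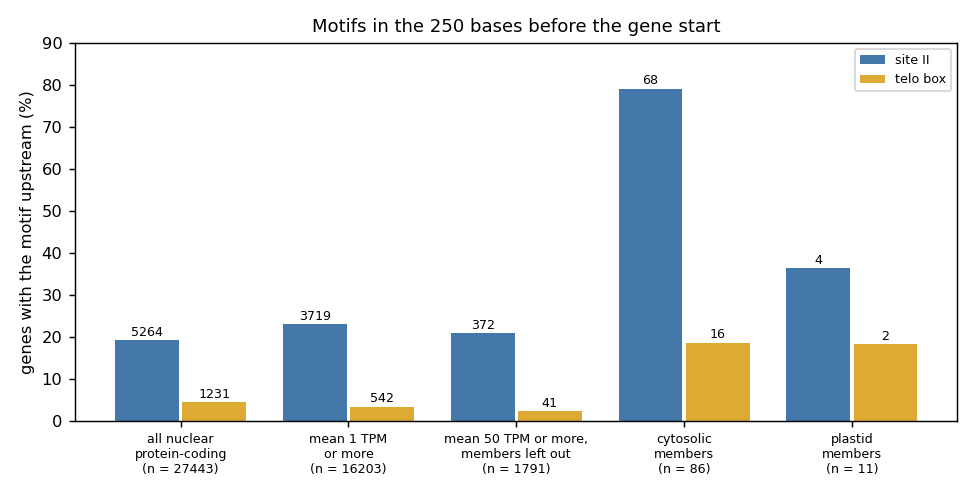
Share of genes (%) with a site II element or a telo box in the 250 bases before the gene start, for background gene sets and for members; numbers above the bars are gene counts. Cytosolic members stand at 79.1% for site II, against 36.4% of the plastid members and 19.2% of all protein-coding genes.

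Mean levels of single members ran from 50.3 to 366 TPM, with a median of 99.2, and the 10 highest held 21.7% of the summed level. The highest was RPL19A, a large-subunit protein that forms a bridge to the small subunit. Its level was 375, 339 and 398 TPM in the wild type libraries 1 to 3, 445, 415 and 497 in scl15 and 258, 257 and 312 in Napin:SCL15. These 3 sets do not overlap. RPS8A, of the small subunit, stood at 344, 301 and 366 TPM in wild type, 432, 363 and 476 in scl15 and 293, 256 and 339 in Napin:SCL15. Here each altered line overlapped wild type, by 1 library in scl15 and by 1 in Napin:SCL15. RPL10A, the protein known in Arabidopsis also as a partner of the NIK1 receptor kinase, followed with a mean of 254 TPM, then RPL18AB with 223 and RPS3B with 221. Within wild type the spread between replicates was modest, with a median coefficient of variation of 7.93% over members, and it was 11.9% in scl15 and 11.4% in Napin:SCL15. Replicates did not scatter independently: in scl15, replicate 3 was the highest library for 86 of the 100 members, and in Napin:SCL15, replicate 3 was the highest for 80 and replicate 2 the lowest for 90.

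**Figure D2:**
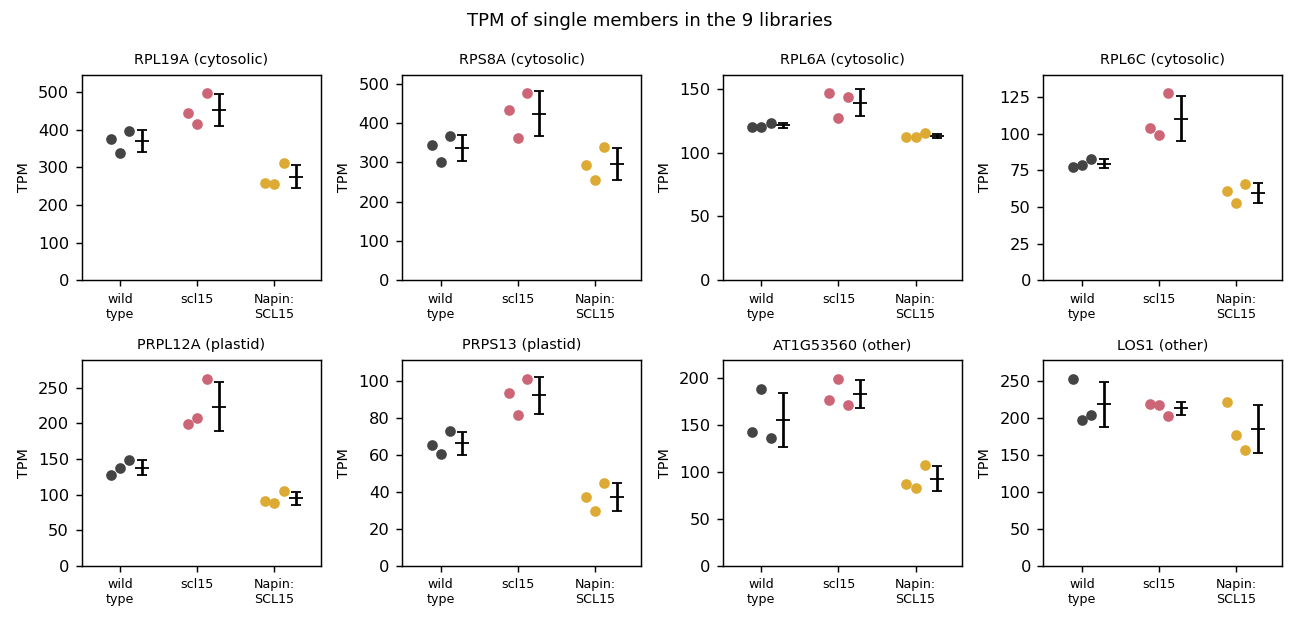
TPM in each library (points) with the mean and SD of 3 replicates (bars) for 8 members. PRPL12A and PRPS13 separate the 3 groups, LOS1 does not, and RPL6C moves further than RPL6A.

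Summed over the 100 members, the level was 11347, 10430 and 11805 TPM in wild type, 13179, 12594 and 15377 in scl15, and 9107, 8148 and 10141 in Napin:SCL15. The group means were 11194 ± 700, 13717 ± 1467 and 9132 ± 997 (SD, n = 3), and no library of one group reached into another. For 94 of the 100 members the group mean was highest in scl15 and lowest in Napin:SCL15, among them 82 of 86 cytosolic and all 11 plastid members. The share of all genes with that order was not computed. The median of all genes tested, given below, moved in the same directions. Without that share, the count cannot be called particular to the members. Because TPM are shares of a fixed total, the rest of the library enters these sums. Seed storage transcripts (the list of 13 albumin, globulin and oleosin genes) took 33.7% of the total in wild type, 34.5% in scl15 and 45.6% in Napin:SCL15, and CRD, a cruciferin, rose in Napin:SCL15 (0.67, limma adjusted p = 0.0033). Without storage, ribosomal RNA and organelle transcripts in the denominator, the members' share was 2.00% ± 0.160 in wild type, 2.36% ± 0.220 in scl15 and 1.93% ± 0.162 in Napin:SCL15 (SD, n = 3). On that scale Napin:SCL15 overlapped wild type, while all scl15 libraries stayed above both. The gap was narrow, 2.18% in scl15 replicate 2 against 2.16% in wild type replicate 3. Cytosolic members alone overlapped between these libraries, at 1.85% and 1.87%, and plastid members did not, at 0.242% and 0.205%. In whole siliques, fewer cells of a type and less RNA per cell cannot be told apart.

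**Figure D3:**
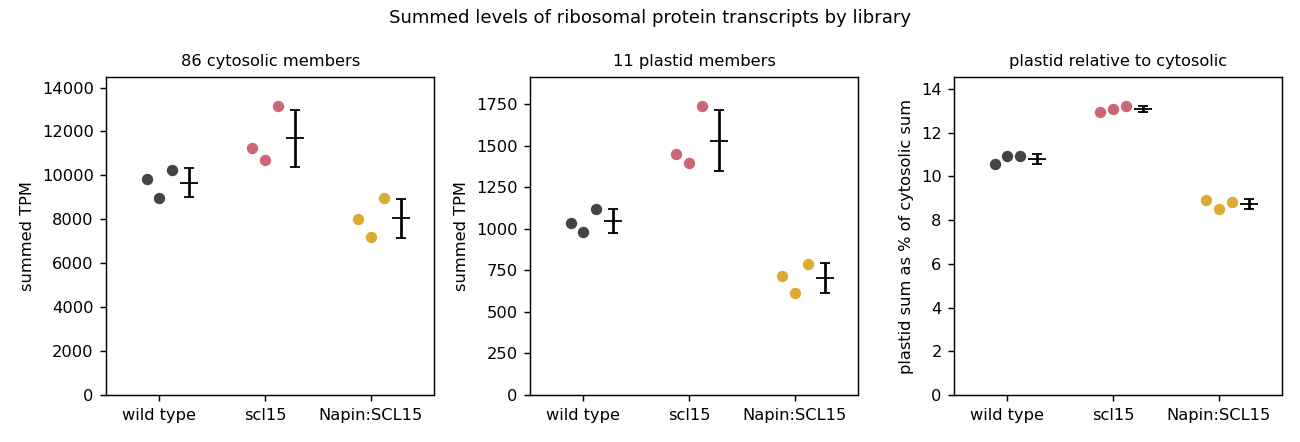
Summed TPM of cytosolic members and of plastid members, and the plastid sum as a percentage of the cytosolic sum, by library (points) with mean and SD of 3 replicates (bars). The percentage is 12.9 to 13.2 in scl15, 10.6 to 10.9 in wild type and 8.49 to 8.93 in Napin:SCL15, with little spread within a group.

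As a check of the labels, SCL15 itself was at 14.4, 16.2 and 10.7 TPM in wild type, 6.31, 6.39 and 4.82 in scl15 and 526, 569 and 556 in Napin:SCL15. Its transcript was thus lower but present in scl15, and whether the counted reads fall outside the disrupted part was not tested. Tests used limma on log2(TPM + 1) over 16555 genes, with Benjamini-Hochberg adjustment over all of them and a threshold of 0.05. The median of all genes tested moved in every comparison, by 0.10 in scl15 against wild type, by −0.28 in Napin:SCL15 against wild type and by −0.38 between the altered lines. Each comparison is therefore also given after median-ratio scaling, which sets the typical gene of each library level.

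In scl15 against wild type, transcripts for plastid ribosomal proteins rose. The share of cytosolic ones that passed the test was near that of all genes, though most cytosolic members lay above the median of all genes. By the test, 19 of the 100 members rose and none fell, where 9.18% of all genes tested rose and 6.31% fell. At an unadjusted p of 0.05, 50 members were higher and none lower, where 18.3% of all genes were higher and 9.66% lower. Those 50 included 40 of the 86 cytosolic members. The 19 were 10 of the 11 plastid members and 9 of the 86 cytosolic ones, and none of the cytosolic calls held after median-ratio scaling. The median log2 fold change was 0.28 over all members, 0.27 over cytosolic and 0.54 over plastid members, against 0.10 over all genes tested. In 62 members every scl15 library lay above every wild type library, where 21.9% of all genes did so, and in no member was it the reverse, as in 11.1% of all genes.

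PRPL12A, which encodes the stalk protein that recruits translation factors to the plastid ribosome, had the largest rise among plastid members. Its levels were 127, 137 and 149 TPM in wild type and 200, 208 and 263 in scl15. The groups are well apart, by a log2 fold change of 0.69 ± 0.13 (SE; limma adjusted p = 0.0023). PRPL12C, a second gene for the same protein, went from 98.9, 98.1 and 124 TPM to 155, 145 and 204 (0.64, limma adjusted p = 0.0075). The transcripts of these neighbours on chromosome 3 share 17.5% and 24.8% of their 50-base windows with another gene, so part of their reads could be assigned to either. PRPL3 (0.66), PRPS9 (0.61) and PRPL27 (0.58) also rose; they encode a core large-subunit protein, a small-subunit protein near the decoding site and a protein beside the peptidyl transferase centre. PRPS17, PRPL17, PRPS5, PRPL1 and PRPS13 rose by 0.54, 0.50, 0.49, 0.48 and 0.47. PRPL10, which anchors the stalk, had 103, 110 and 108 TPM in wild type and 122, 120 and 133 in scl15, a log2 fold change of 0.22 that did not pass (limma adjusted p = 0.23) although its groups did not overlap.

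Among cytosolic members the largest value was that of RPL41E_1, whose product of 25 residues is the smallest ribosomal protein here. It stood at 46.7, 53.0 and 67.5 TPM in wild type and 80.6, 78.0 and 128 in scl15 (log2 fold change 0.74 ± 0.23 SE, limma adjusted p = 0.039). Every scl15 library was above wild type, with replicate 3 far above the others. The remaining 8 were RPS24B, RPL32B, RPS12A, RPL6C, RPL23AA, RPS26C, RPP0B and RPS4D, with log2 fold changes of 0.40 to 0.55; these names, beyond RPL6C, were chosen after their values were seen. RPS12A reached the 50 TPM minimum only through scl15, with group means of 49.3 TPM in wild type, 68.5 in scl15 and 40.6 in Napin:SCL15. Among the other called members, RPS24B, PRPS9 and PRPS5 also averaged under 50 TPM over the wild type and Napin:SCL15 libraries alone. So did members not called here, among them RPL18AC and RPL13AA. Group means in wild type, scl15 and Napin:SCL15 were 50.4, 67.6 and 36.2 TPM for RPL18AC, and 51.0, 56.9 and 43.0 TPM for RPL13AA. RPL18AC is among the 62 members without overlap. The rises of all these members are no support for the cytosolic or plastid counts they enter. RPP0B encodes P0, the base of the ribosomal stalk, which binds the factor-recruiting P1 and P2 proteins. The 5 members of highest level were not among the 19. After median-ratio scaling 7 members rose and none fell, where 6.14% of all genes rose and 7.77% fell; all 7 were plastid (with 13 cytosolic members higher and none lower at an unadjusted p of 0.05, where 12.9% of all genes were higher and 12.8% lower), with a plastid median of 0.44 and a cytosolic one of 0.17. The count of 19 depended on single libraries: it was 6 without wild type replicate 1, 5 without wild type replicate 2, 7 without scl15 replicate 1 and 6 without scl15 replicate 3, and over the plastid members these gave 5, 5, 4 and 5. The 7 scaled calls, all plastid, became 2 without wild type replicate 1, 1 without wild type replicate 2 and 1 without scl15 replicate 3, with 4 plastid calls without scl15 replicate 1 and 5 without scl15 replicate 2. Without scl15 replicate 3, the scaled cytosolic median was 0.08.

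In Napin:SCL15 against wild type, all 11 plastid members fell, while in the main fit the cytosolic median moved as far as that of all genes. In all, 34 of the 100 members fell and none rose, where 23.4% of all genes tested fell and 1.68% rose; at an unadjusted p of 0.05, 54 were lower and none higher, where 36.7% of all genes were lower and 2.6% higher. The 34 were the 11 plastid members, 22 cytosolic ones and AT1G53560. The cytosolic median of −0.28 equals the −0.28 of all genes tested, with 43 cytosolic members below that value and 43 above it. This even split depended on the 1 TPM added before taking logs. With 0.1 TPM added, 30 lay below the median of all genes and 56 above it. With 5 TPM added, 62 lay below and 24 above. The plastid median was −0.55, and each of the 11 lay below the median of all genes. In 53 members every Napin:SCL15 library was below every wild type library, where 39.6% of all genes were, and none stood wholly above, as 3.41% of all genes did.

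PRPS13, a protein of the small-subunit head, fell furthest. It was at 65.4, 60.7 and 73.2 TPM in wild type and 37.2, 29.9 and 45.0 in Napin:SCL15. There is a clear gap between the groups, and the log2 fold change was −0.83 ± 0.15 (SE; limma adjusted p = 0.0022). PRPL10 fell from 103, 110 and 108 TPM to 67.5, 56.8 and 69.1 (−0.73, limma adjusted p = 0.00095), the member least raised in scl15 among the plastid ones. PRPL27 (−0.67), PRPL3 (−0.61), PRPS17 (−0.56), PRPL12C (−0.55), PRPL12A (−0.53), PRPS5 (−0.51), PRPS9 (−0.50), PRPL17 (−0.48) and PRPL1 (−0.36) completed the plastid set. The largest cytosolic fall was that of RPL11B_2, which in yeast and mammals enters the ribosome together with 5S rRNA. Its levels of 61.1, 60.3 and 63.1 TPM in wild type and 41.2, 35.5 and 43.7 in Napin:SCL15 gave −0.61 ± 0.12 (SE; limma adjusted p = 0.0039). Of the most abundant members, RPL19A fell (−0.43, limma adjusted p = 0.024), while RPS8A (−0.19), RPL10A (−0.24), RPL18AB (−0.30) and RPS3B (−0.14) did not pass.

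After median-ratio scaling 2 members fell and none rose in this comparison, where 3.58% of all genes fell and 3.3% rose; at an unadjusted p of 0.05, 5 were lower and 8 higher, where 11.4% of all genes were lower and 9.72% higher. They were PRPS13 (−0.50, limma adjusted p = 0.045) and PRPL10 (−0.40, limma adjusted p = 0.039). The cytosolic median became 0.05 and the plastid one −0.22, and all 11 plastid members were still below the median of all genes. The unscaled count was 10 without wild type replicate 1, 11 without wild type replicate 3, 22 without Napin:SCL15 replicate 1 and 8 without Napin:SCL15 replicate 2; with the replicate number as a block it was 59. The 11 plastid calls became 6 without wild type replicate 1, 5 without wild type replicate 3 and 5 without Napin:SCL15 replicate 2. The scaled count of 2 was 0 without any 1 of wild type replicates 1 and 3 and Napin:SCL15 replicates 1 and 2, and 1 without wild type replicate 2, scl15 replicate 1 or Napin:SCL15 replicate 3.

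Between the altered lines, Napin:SCL15 against scl15, 87 of the 100 members were lower and none higher, where 43.1% of all genes tested were lower and 6.16% higher; at an unadjusted p of 0.05, 91 were lower and none higher, where 49.2% of all genes were lower and 6.93% higher. The 87 comprised 75 of 86 cytosolic members, all 11 plastid members and AT1G53560. Medians were −0.56 for cytosolic and −1.11 for plastid members, against −0.38 for all genes tested. In 87 members every Napin:SCL15 library was below every scl15 library, where 49.3% of all genes were, and none lay wholly above, as 7.36% of all genes did. Both altered lines enter this comparison and the 2 above, so the 3 sets of values are not independent of each other. Members that reached 50 TPM only through scl15 enter this comparison too. RPS12A, RPS24B, PRPS9, PRPS5, RPL18AC and RPL13AA are among them, and their differences are no support for these counts.

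PRPS13 was at 93.9, 81.7 and 102 TPM in scl15, against the 37.2, 29.9 and 45.0 given above, a log2 difference of −1.30 ± 0.15 (SE; limma adjusted p = 1.4e-05). PRPL3 differed by −1.27, PRPL27 by −1.25, PRPL12A by −1.22 and PRPL12C by −1.20, and the smallest plastid difference was −0.84, that of PRPL1. Cytosolic differences ran from −1.11 in RPS15AA_1, a small-subunit protein, to −0.19. The 11 cytosolic members that did not pass belong to the small subunit with 1 exception, RPL4A, and include RPS3B, all 3 RPS30C genes and a pair of the near-identical RPS2B genes; they were named after their values were seen. After median-ratio scaling 23 members were lower and 1 higher, where 14.5% of all genes were lower and 13.3% higher. The 23 were all 11 plastid members, 11 cytosolic ones and AT1G53560, and the 1 higher was AT3G14595. The scaled cytosolic count of 11 fell to 1 without scl15 replicate 3 and to 2 without Napin:SCL15 replicate 2, whereas the plastid count was 9 in both cases.

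**Figure D4:**
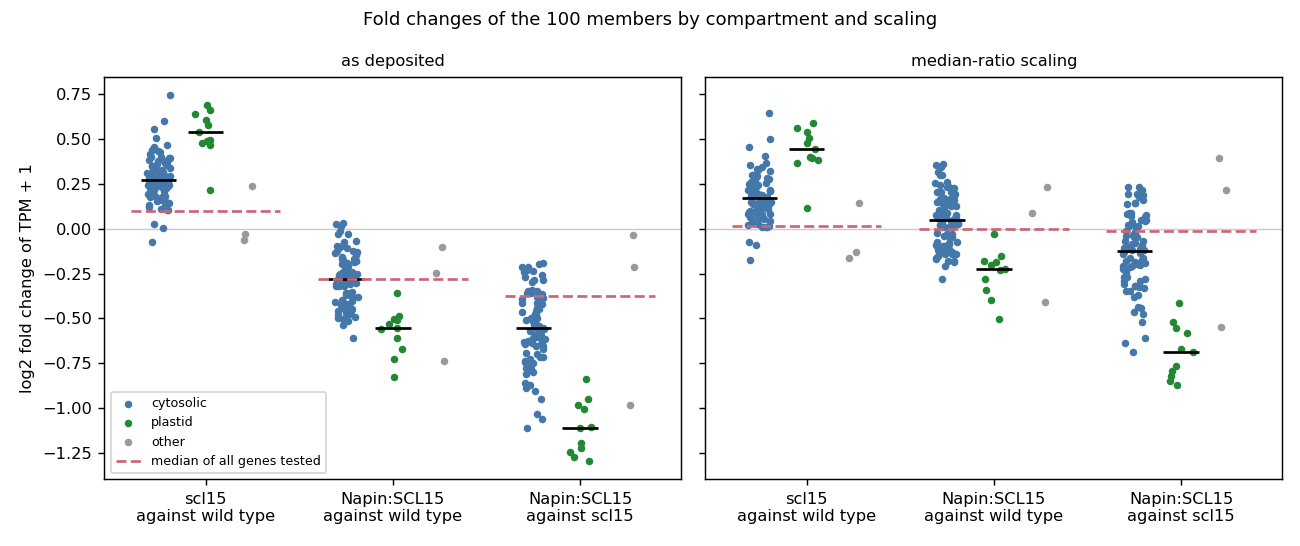
Log2 fold change of TPM + 1 for each member (points) in the 3 comparisons, as deposited and after median-ratio scaling; black bars are medians of cytosolic and plastid members and dashed lines the median of all genes tested. In Napin:SCL15 against wild type the cytosolic median lies on the dashed line at −0.28 as deposited, and the plastid median at −0.55.

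The difference between compartments can be read without any scaling, as the plastid sum relative to the cytosolic sum inside each library. It was 10.6%, 10.9% and 10.9% in wild type, 12.9%, 13.1% and 13.2% in scl15, and 8.93%, 8.49% and 8.82% in Napin:SCL15. The groups do not overlap, and the means were 10.8% ± 0.224, 13.1% ± 0.144 and 8.75% ± 0.230 (SD, n = 3). Within the cytosolic set the same kind of ratio was flat: small-subunit transcripts were 70.5% ± 1.12 of large-subunit ones in wild type, 69.4% ± 1.99 in scl15 (SD, n = 3) and 70.0 to 72.7% in the Napin:SCL15 libraries, with overlap between all groups. The replicate-3 libraries that stood highest for single members did not stand apart in the plastid ratio.

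Transcripts of the photosynthetic apparatus moved in the same order as the plastid members. The list of 20 nuclear light-harvesting, Rubisco and related genes took 1.51 to 1.89% of the total in wild type, 2.76 to 3.33% in scl15 and 0.770 to 1.03% in Napin:SCL15. All 20 rose in scl15 and 19 fell in Napin:SCL15 against wild type, with medians of 0.77 and −0.90. After median-ratio scaling 19 rose in scl15 and 8 fell in Napin:SCL15, with medians of 0.67 and −0.57. The largest change in both comparisons was in LHCB2.3, an antenna protein of photosystem II, with group means of 13.2 TPM in wild type, 48.9 in scl15 and 3.36 in Napin:SCL15. The far more abundant antenna gene LHCB1.2 had means of 416, 1115 and 157 TPM. None of the 20 was at 0 in any library. These are markers of green tissue of any part of the silique, and the part of a changed tissue makeup in the plastid ribosomal result was not tested. The 28 further nuclear genes for plastid ribosomal proteins on the fixed list, which fall outside the members, had changes in the same directions: 13 rose in scl15, against 10 of the 11 members, 26 fell in Napin:SCL15 against wild type and all 28 were lower between the altered lines, with medians of 0.51, −0.64 and −1.15. Among these 28, PSRP1, whose spinach counterpart binds inactive plastid ribosomes, rose most in scl15 (1.05, limma adjusted p = 0.00046), and PSRP5, a plastid-specific large-subunit protein, fell most in Napin:SCL15 (−1.01, limma adjusted p = 0.002). After median-ratio scaling those counts were 8, 4 and 24.

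**Figure D5:**
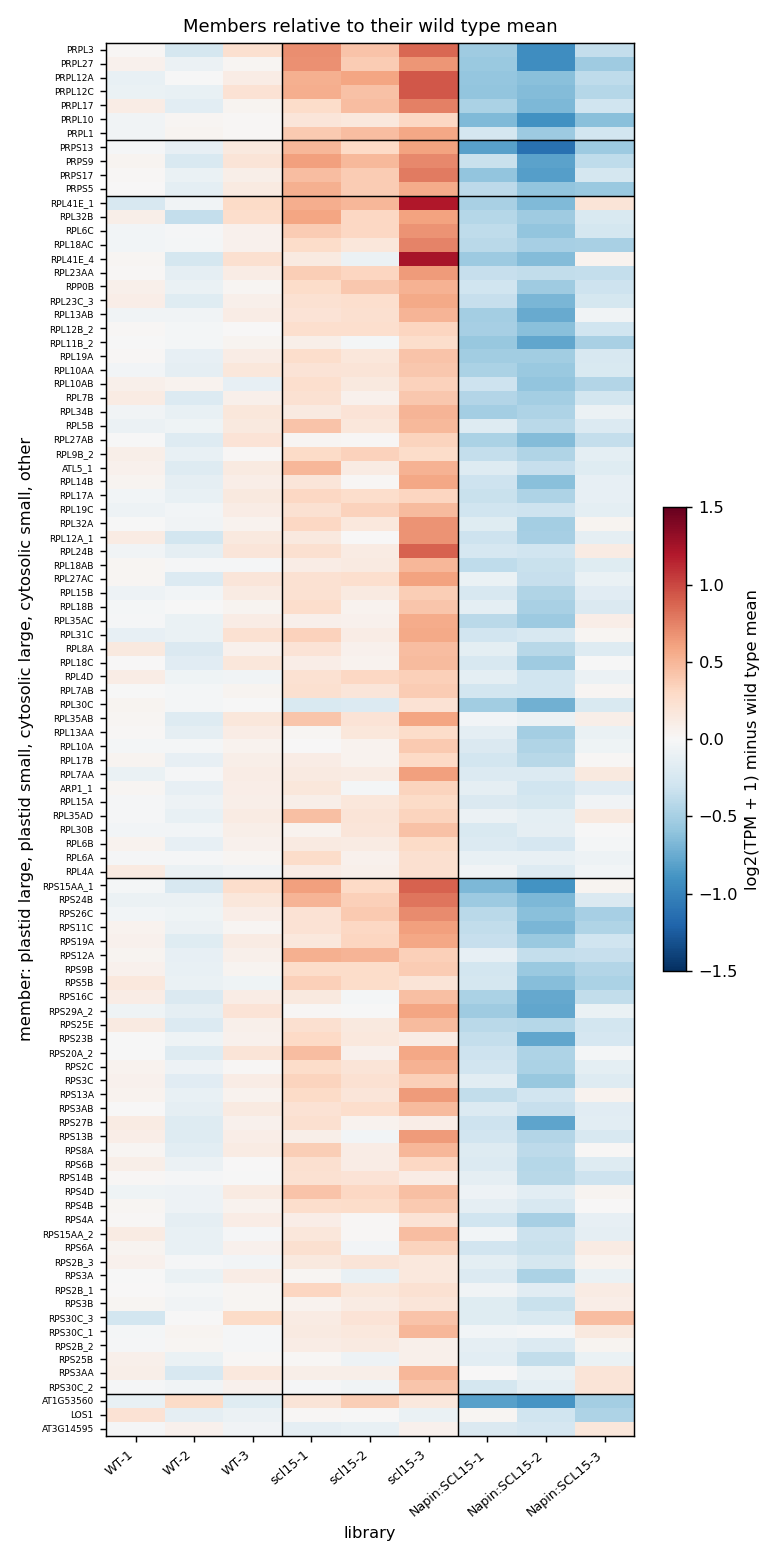
Log2(TPM + 1) of each member in each library minus the mean of its 3 wild type libraries (red higher, blue lower), ordered by compartment and subunit. The 11 plastid rows at the top are red in every scl15 library and blue in every Napin:SCL15 library; in the cytosolic rows, scl15 replicate 3 is the reddest column and Napin:SCL15 replicate 2 the bluest.

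Most pairs of paralogs for the same protein had similar log2 fold changes. Among 42 pairs of members and 3 comparisons, the log2 fold changes differed by under 0.3 in 107 of 126 cases, and the median difference between the altered lines was 0.11. The exceptions named next were picked for their difference, so no test is given. RPL6 is a large-subunit protein with 3 member genes. RPL6A had 120, 120 and 124 TPM in wild type, 146, 127 and 144 in scl15 and 112, 112 and 115 in Napin:SCL15. RPL6C had 77.2, 78.5 and 83.0 TPM in wild type, 104, 98.9 and 128 in scl15 and 60.8, 52.5 and 66.0 in Napin:SCL15. The swing of RPL6C was wider, at −0.87 between the altered lines against −0.29 for RPL6A and −0.34 for RPL6B. As a ratio within libraries, RPL6A was 156%, 153% and 149% of RPL6C in wild type, 141%, 129% and 113% in scl15 and 184%, 214% and 174% in Napin:SCL15, without overlap. RPL6A is the paralog printed above with site II elements and a telo box, and RPL6C the one with neither. Pairs named below did not all follow this: RPL30B moved less than RPL30C in Napin:SCL15 against wild type, with 0 site II elements against 2. A link between motif and change was not tested.

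RPS15AA_1 and RPS15AA_2 differed most, at −1.11 and −0.38 between the altered lines. RPS15AA_1 went from 68.2, 58.5 and 83.5 TPM in wild type to 107, 85.6 and 129 in scl15 and 42.9, 36.7 and 71.6 in Napin:SCL15. Its Napin:SCL15 replicate 3 overlaps wild type, and some of its 50-base windows also occur in the neighbouring gene AT1G07780. Other pairs were RPS25B against RPS25E (−0.21 and −0.66) and RPS2B_2 against RPS2C (−0.21 and −0.63) between the altered lines, and RPL30B against RPL30C (−0.12 and −0.49) in Napin:SCL15 against wild type. The 3 RPS2B genes share all their 50-base windows, so their separate values depend on how reads were divided among identical copies. Of all members, 69 share no such window with another gene and 4 share over 50%.

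The 3 members that are not ribosomal proteins did not move alike. LOS1 had 253, 197 and 204 TPM in wild type, 219, 216 and 202 in scl15 and 221, 176 and 157 in Napin:SCL15. These overlap throughout, and none of its comparisons passed. AT1G53560 had 142, 189 and 136 TPM in wild type, 177, 199 and 172 in scl15 and 87.1, 82.9 and 108 in Napin:SCL15. Its group means held the order of most members, highest in scl15 and lowest in Napin:SCL15. In Napin:SCL15 against wild type its log2 fold change was −0.74 ± 0.14 (SE; limma adjusted p = 0.0036) and did not pass in scl15 (0.24). AT3G14595 was nearly level, at 97.2 to 105 TPM in wild type, 91.5 to 105 in scl15 and 84.4 to 113 in Napin:SCL15.

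Ribosomal protein genes below the 50 TPM minimum included 156 with a mean of at least 1 TPM, which were tested. Of these, 11 rose and 1 fell in scl15, 27 fell and 1 rose in Napin:SCL15 against wild type, and 74 were lower between the altered lines, with medians of 0.21, −0.24 and −0.44. The shares of all genes tested were 9.18% risen in scl15, 23.4% fallen in Napin:SCL15 and 43.1% lower between the altered lines, so these counts lie near or below the background. After median-ratio scaling 5 rose and 1 fell in scl15, 1 rose and 3 fell in Napin:SCL15, and 7 were higher and 17 lower between the altered lines. The 1822 other genes of 50 TPM or more had medians of 0.03, −0.37 and −0.40, with 289 risen and 270 fallen in scl15 and 106 risen and 865 fallen in Napin:SCL15 against wild type. After median-ratio scaling these counts were 201 and 338 in scl15 and 170 and 132 in Napin:SCL15.

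Further lists hold genes that act with the ribosome, and no difference between them and the members was tested. As background, 23.4% of all genes tested fell in Napin:SCL15 against wild type and 43.1% were lower between the altered lines. After median-ratio scaling, 3.3% rose in Napin:SCL15 against wild type and 14.5% were lower between the altered lines. The acidic stalk proteins P1, P2 and P3 and the P0 genes form a list of 11, 1 of which, RPP0B, is a member. In Napin:SCL15 against wild type RPP0B (−0.38) and RPP3B (−0.57, limma adjusted p = 0.025) fell, and 7 of the 11 were lower between the altered lines, of which 1 passed after scaling. Of 32 ribosome biogenesis genes, 30 were tested, and none passed the limma threshold in scl15, where 1 was higher and 1 lower at an unadjusted p of 0.05; 1 fell in Napin:SCL15 against wild type, REIL1 (−0.56, limma adjusted p = 0.0096), a cytosolic maturation factor of the large subunit. Their medians were 0.10, −0.01 and −0.07, so in Napin:SCL15 they stood above the typical gene. After median-ratio scaling, 4 biogenesis genes rose in Napin:SCL15 against wild type, namely NUC1 (0.49), NOP56 (0.63), GAR1 (0.55) and CBF5 (0.58), which encode nucleolin and core proteins of the small nucleolar RNA particles. As deposited, NUC1 was at 74.1 TPM in wild type, 63.5 in scl15 and 82.7 in Napin:SCL15 (group means), and only the difference between the altered lines passed (0.37, limma adjusted p = 0.0081).

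Among 24 translation factor genes besides LOS1, 2 fell in scl15, where 6.31% of all genes did. They were EIF5A-3 (−0.41, limma adjusted p = 0.023) and EIF4A-2 (−0.41, limma adjusted p = 0.034). In Napin:SCL15 against wild type 7 fell, where 23.4% of all genes did, so both counts lie near the background. The largest of the 7 falls was in EIF5A-1 (−1.14, limma adjusted p = 0.0049), a factor that aids elongation, at 4.84 TPM in wild type and 1.71 in Napin:SCL15. TCTP1, a growth-linked protein, fell by 0.65 on the log2 scale, from 1510 to 970.0 TPM. After scaling, EIF5A-1 alone passed. In the list of 7 genes of TOR signalling and its targets, which links nutrients and growth to ribosomal protein production, S6K2 fell in scl15 (−0.67, limma adjusted p = 0.012) from 23.1 to 14.1 TPM. S6K2 encodes a kinase of ribosomal protein S6. LST8-1 (−0.56) and S6K1 (−0.52) fell in Napin:SCL15 against wild type as deposited, and neither passed after scaling. TOR itself, at mean levels of 1.43, 1.62 and 1.19 TPM in wild type, scl15 and Napin:SCL15, did not pass in any comparison.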

How the data were processed

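The authors deposited TPM per gene for 9 stranded TruSeq libraries (mRNA and total RNA kits are both named), per the labels' protocols. Values were mapped to TAIR10, per the submitters' processing notes; for aligner, quantifier and strand setting, nothing is given in the sources used here. Each library sums to 1000000 and lists 19679 to 21855 genes above 0; TPM keep no counts, so depth is unknown and no counting interval is given. From these values log2(TPM + 1) was tested with limma 3.58.1 (R 4.3.3) with an abundance trend, in one fit of all 9 libraries with 6 residual degrees of freedom, over 16555 genes of mean 1 TPM or more. Median-ratio scaling, quantile normalization, other pseudocounts, filters and library sets were tried. The members, classes and gene lists were chosen with earlier results of these data known. Named members were the 5 highest, the 6 largest called changes per comparison, the 6 most divergent paralog pairs and all plastid and non-ribosomal members; in each list, the called genes of largest change. Deviations of same-numbered libraries correlated weakly, at 0.127, 0.179 and 0.149, between Napin:SCL15 and wild type. Correlations were −0.0605, 0.35 and 0.266 between scl15 and wild type, and 0.0743, 0.161 and 0.129 between the altered lines. By the fixed criterion only Napin:SCL15 and wild type count as paired, although the largest values, 0.35 and 0.266, were between scl15 and wild type. This does not establish which samples were paired. The main fit uses no pairing, and counts with the replicate number as a block are given beside its own. Gene positions, 250-base upstream windows, notes and 50-base windows shared between transcripts came from RefSeq TAIR10.1. The fit was tested on simulated data with independent noise for each gene and library. That test does not cover shifts shared by a whole library, such as those of the replicates described above.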

Additional observations from a re-analysis of the deposited data

How the results depend on the processing

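Member calls depended most on scaling and on single libraries. In scl15 against wild type the 19 calls became 7 with median-ratio scaling, 8 without the abundance trend, 48 with the replicate block, 11 with both replicate-3 libraries of the altered lines left out, 6 with a member minimum of 100 TPM and 9 over cytosolic members only; leaving out 1 library gave 5 to 23. In Napin:SCL15 against wild type the 34 calls became 2 with median-ratio scaling, 2 with quantile normalization, 3 with totals rescaled without storage, ribosomal RNA and organelle genes, 18 without the trend, 59 with the replicate block, 5 with block and median-ratio scaling, 52 and 14 with member minimums of 20 and 100 TPM and 22 over cytosolic members only; leaving out 1 library gave 8 to 41. The median there, −0.30, turned to 0.031 with median-ratio scaling with or without the block, to 0.028 with quantile normalization and to −0.062 with rescaled totals. Between the altered lines the 87 calls became 24, 31 and 39 under these 3 scalings, 33 with block and median-ratio scaling, 132 and 42 with the other minimums, and 66 to 93 with 1 library left out; the median of −0.60 became −0.17, −0.21 and −0.31, and −0.17 with block and median-ratio scaling. The block gave 92 calls there. The numbers pair only Napin:SCL15 and wild type by the fixed criterion, although 8 of 9 libraries lay closest to the same number in another group. Single members that turned sign between the altered lines under median-ratio scaling, with or without the block, were RPL10A (0.039), RPL6A (0.14), RPL30B (0.082), RPS15AA_2 (0.044), RPL6B (0.087) and RPL30C (0.011); quantile normalization turned RPL6A (0.086), RPL30B (0.014) and RPL6B (0.017). Summed TPM became 12141 in scl15 and 10876 in Napin:SCL15 with median-ratio scaling, 20037, 23618 and 19267 (wild type, scl15, Napin:SCL15) with rescaled totals, 13223, 16179 and 10734 with a minimum of 20 TPM and 7561, 9140 and 6226 with 100 TPM. The block with scaling, the cytosolic-only sets and the scaled fits without 1 library were chosen after seeing the data. With 3 libraries a group and no counts, small changes of low genes could not be resolved.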
